A study of Mus musculus with 23 samples.

Results

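The cytosolic ribosomal protein genes of the mouse were examined for RNA polymerase II, H3K9me3, R-loops and DDX55 in naive CD4+ T cells. Members were the protein-coding genes whose symbol is Rpl or Rps followed by a number, with at most a short letter suffix. This gave 80 of the 21887 protein-coding genes on assembled chromosomes in the RefSeq table of GRCm38.p6, of which 49 belong to the large subunit (Rpl) and 31 to the small subunit (Rps). The symbol rule also takes in paralogs that it cannot tell from the ubiquitous proteins, and leaves out others such as Fau, Rpsa and the Rplp genes.

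Cells came from spleen and from lymph nodes labelled pLN, and the genotypes were DDX55 KO and WT. DDX55 is a DEAD-box RNA helicase. Binding was mapped by CUT&Tag, in which a transposase tethered to an antibody cuts DNA beside the target, and 23 samples were labelled. RNA polymerase II, H3K9me3 and DDX55 were each profiled in 2 KO and 2 WT samples. R-loops, which are DNA-RNA hybrids with a displaced DNA strand, were profiled with RNase H in 2 KO and 2 WT samples and without it in 2 KO and 2 WT samples. RNase H digests the RNA of such hybrids. Samples stained for an HA tag (2, WT) or with IgG (1, WT) name no peak list and were not analysed here. The labels do not give the deleted allele, the driver of the deletion, the age of the mice, or whether separate mice were used for the samples of a group. Spread between animals is therefore not known.

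The deposited files are 1 merged peak list for each of 4 targets, with positions only. RNA polymerase II had 10898 peaks on assembled chromosomes, H3K9me3 16474, R-loop 1473 and DDX55 215. KO and WT samples share each list, so no value per sample exists and no comparison of KO with WT cells was made. Every count below is therefore a description of a list, with exact Clopper-Pearson 95% intervals that cover counting error only. Genes are not replicates, and the depth behind the peaks is unknown. As a check of the labelled cell type, 10 of 12 T cell marker genes lay close to RNA polymerase II, defined as a peak less than 3000 bp from either gene end. Cd4 carried a 2180 bp peak. The counts were 1 of 7 for B cells (Cd79a), 1 of 8 for myeloid cells (Cd68), 1 of 7 for CD8 and NK cells (Prf1) and 2 of 6 for erythroid cells (Epor and Klf1). The share of all protein-coding genes was 33.5%, below the T cell interval of 51.6 to 97.9%. It lay within the intervals for B cells (0.361 to 57.9%), myeloid cells (0.316 to 52.7%), CD8 and NK cells (0.361 to 57.9%) and erythroid cells (4.33 to 77.7%). These small counts therefore do not show that such cells were absent.

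Ribosomal proteins are among the most abundant proteins of a cell. They are made in matched amounts because the large and small subunits need 1 copy of nearly every protein. Their genes are short and are transcribed by RNA polymerase II at high rates, while ribosomal RNA is made mainly by RNA polymerase I. In mammals their mRNAs typically begin with a C followed by a run of pyrimidines, the terminal oligopyrimidine (TOP) tract, through which mTORC1 and Larp1 control their translation. Naive T cells are small resting cells that enlarge and raise ribosome production after activation. Introns of many of these genes also encode small nucleolar RNAs (snoRNAs), which guide modification of ribosomal RNA.

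Windows of 100 bases around the annotated transcription start were taken from the RefSeq promoter table of GRCm38.p6, which matched 61 of the 80 members. Each window holds 70 bases before the start, and capitals mark the longest run of C and T that reaches within 5 bp of it. The first set shows the promoters under the 4 widest RNA polymerase II peaks over ribosomal protein genes.
Rpl41 (chr10:128549139-128549238, minus strand): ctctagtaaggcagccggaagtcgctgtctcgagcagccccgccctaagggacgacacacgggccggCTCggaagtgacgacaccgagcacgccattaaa
Rps2 (chr17:24719993-24720092, plus strand): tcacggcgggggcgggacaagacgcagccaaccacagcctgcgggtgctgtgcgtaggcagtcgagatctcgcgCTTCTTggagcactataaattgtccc
Rpl12 (chr2:32961642-32961741, plus strand): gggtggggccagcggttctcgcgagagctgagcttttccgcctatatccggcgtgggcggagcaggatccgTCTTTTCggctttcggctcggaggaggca
Rpl7a (chr2:26910737-26910836, plus strand): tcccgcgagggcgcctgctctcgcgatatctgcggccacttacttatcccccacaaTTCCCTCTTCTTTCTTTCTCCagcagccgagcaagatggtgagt
The next set shows the 6 members with no RNA polymerase II peak at either gene end, to set their start regions beside those of the widest peaks.
Rpl10l (chr12:66284372-66284471, minus strand): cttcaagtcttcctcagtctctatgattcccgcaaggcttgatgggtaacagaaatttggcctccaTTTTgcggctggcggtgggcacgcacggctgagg
Rpl28 (chr7:4792895-4792994, plus strand): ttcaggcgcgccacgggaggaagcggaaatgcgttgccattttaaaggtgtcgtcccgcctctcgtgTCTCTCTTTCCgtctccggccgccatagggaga
Rpl32l (chr10:20208369-20208468, plus strand): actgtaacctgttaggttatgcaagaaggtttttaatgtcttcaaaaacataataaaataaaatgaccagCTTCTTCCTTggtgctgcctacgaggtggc
Rpl39l (chr16:10170158-10170257, plus strand): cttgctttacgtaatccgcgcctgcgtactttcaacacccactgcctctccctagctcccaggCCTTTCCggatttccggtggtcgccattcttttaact
Rpl3l (chr17:24727756-24727855, plus strand): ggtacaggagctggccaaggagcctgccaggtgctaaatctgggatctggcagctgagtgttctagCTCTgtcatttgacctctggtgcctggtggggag
Rps28 (chr17:33824533-33824632, minus strand): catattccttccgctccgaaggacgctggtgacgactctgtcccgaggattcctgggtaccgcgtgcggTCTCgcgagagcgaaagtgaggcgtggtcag
The last set was chosen after its values were seen, for pyrimidine runs of 20 and 20 bases, the longest after the 21 bases of Rpl7a.
Rpl27a (chr7:109519125-109519224, plus strand): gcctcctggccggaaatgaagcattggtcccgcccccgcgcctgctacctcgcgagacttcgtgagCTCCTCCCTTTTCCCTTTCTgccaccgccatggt
Rpl34 (chr3:130730308-130730407, minus strand): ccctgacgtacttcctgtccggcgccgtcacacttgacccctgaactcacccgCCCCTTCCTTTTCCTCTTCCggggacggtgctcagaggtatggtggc
Rpl28 shows that a pyrimidine run at the start is not limited to genes with a peak, since its run is 11 bases long. Rpl41, under the widest peak, has a run of 3 bases at its annotated start.

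RNA polymerase II peaks lay at most ribosomal protein genes. A peak was within 3000 bp of a gene end at 74 of 80 members, or 92.5% (interval 84.4 to 97.2%), against 33.5% of all protein-coding genes. The count was 44 of 49 for the large subunit (89.8%) and 30 of 31 for the small subunit (96.8%). The members are short, with spans of 592 to 11774 bp. Among genes spanning 1000 to 12000 bp, 73 of 78 ribosomal protein genes (93.6%) had such a peak, against 2181 of 7254 other genes (30.1%).

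A peak overlapped the gene itself at 70 of 80 members, or 87.5% (interval 78.2 to 93.8%), against 32.2% of all protein-coding genes. These were 42 of 49 large-subunit genes and 28 of 31 small-subunit genes. Split by span, ribosomal protein genes were above other genes in each of 5 classes. The shares were 60% (interval 26.2 to 87.8%) against 12.1% at 1000 up to 2000 bp, and 91.7% against 20.3% at 2000 up to 3000 bp. At 3000 up to 4000 bp all 15 ribosomal protein genes had an overlapping peak, with a lower bound of 78.2%, against 25.3% of other genes. The shares were 95.5% against 25.1% at 4000 up to 6000 bp. In the longest class, 5 of 7 ribosomal protein genes (71.4%, interval 29.0 to 96.3%) had a peak, against 29.4% of other genes. That interval holds the share of other genes, so the difference in this class is not clear of counting error.

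**Figure D1:**
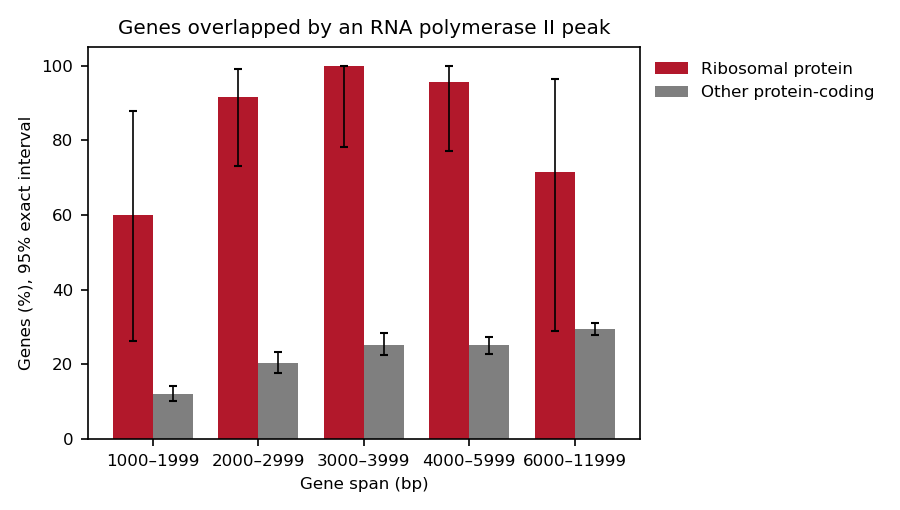
Percentage of genes overlapped by an RNA polymerase II peak (vertical axis) in classes of gene span (horizontal axis, bp), for ribosomal protein genes and for other protein-coding genes, with exact 95% intervals as lines. In every class ribosomal protein genes lie above other genes, from 60% against 12.1% in the shortest class to 71.4% against 29.4% in the longest. In the longest class the interval (29.0 to 96.3%) holds the share of other genes.

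The 6 members without a peak at a gene end fell into paralogs and core genes. Of these, 4 are Rpl10l, Rpl39l, Rpl3l and Rpl32l. Rpl10l and Rpl39l are paralogs known from the testis and Rpl3l is known from heart and skeletal muscle. Rpl10l lay 1110072 bp from the nearest RNA polymerase II peak and Rpl39l 367934 bp. Rpl32l lay 72611 bp away and Rpl3l 3406 bp, just outside the 3000 bp window. The other 2, Rpl28 and Rps28, encode core proteins of the large and the small subunit. Rpl28 lay 12398 bp from the nearest peak and Rps28 40649 bp. Ribosomal protein mRNAs have many processed copies in the genome. How reads that match both a gene and a copy were assigned is not given in the sources used here, and its part in a missing peak was not tested.

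At 4 further members a peak stood at a gene end without touching the gene. Rpl7l1, a paralog of Rpl7, had a 753 bp peak 22 bp beyond its start side. Rps15 had an 822 bp peak 1004 bp past its far end, which touched no other protein-coding gene but lay within 500 bp of the start of one. The peak nearest to Rpl23a was 758 bp wide, lay 2439 bp away and held the annotated start of Tlcd1, so it stands at another gene's promoter. Of the paralogs the rule took in, Rps27l had a 1399 bp peak (chr9:66945384-66946782) and Rpl22l1 an 880 bp peak (chr3:28805124-28806003). Of the 6 listed paralogs that were found, 3 had a peak at a gene end (50%, interval 11.8 to 88.2%). The 33.5% of all protein-coding genes lies within that interval, so this count cannot be told from it.

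Peak width varied widely among ribosomal protein genes. Taking the widest overlapping peak per gene, the median was 881 bp (quartiles 685 and 1060 bp, range 363 to 1928 bp, 70 genes), against 793 bp over 6970 other genes and 782 bp over 1786 other genes of the members' span range. The quartiles of the members lay within those of the other genes, which were 545 and 1078 bp. A width in the upper quartile of the list, which has a median of 638 bp, was found for 30 of 70 members (42.9%), against 36.4% of all genes with an overlapping peak. Small-subunit genes had a median of 948 bp and large-subunit genes 844 bp.

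The widest peak covered Rpl41 (gene ID 67945), which encodes the smallest ribosomal protein. It was 1928 bp wide (chr10:128547269-128549196). Rps2, a small-subunit protein at the mRNA entry side, had a 1759 bp peak (chr17:24719685-24721443). Rpl12, part of the stalk base where translation factors bind, had a 1745 bp peak (chr2:32961488-32963232). These 3 stood apart from the rest, since the next, Rpl7a, had 1403 bp (chr2:26910224-26911626). The peaks of Rpl41, Rpl12 and Rpl7a also held the annotated start of a neighbouring gene, while that of Rps2 did not. The widest 10 went on with Rps27l at 1399 bp, Rpl37 at 1307 bp, Rpl3, which reaches towards the peptidyl transferase centre, at 1300 bp, Rps3a1 at 1237 bp, Rpl10, which joins the large subunit late, at 1217 bp, and Rps29 at 1165 bp.

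At the narrow end, Rps16 had a 363 bp peak (chr7:28350733-28351095) and Rpl36 a 377 bp peak (chr17:56613591-56613967). Rps10 followed with 438 bp, Rpl11 with 445 bp and Rpl24 with 489 bp. Rpl11 and Rpl5 can bind Mdm2 when ribosome assembly is disturbed, and the Rpl5 peak was 846 bp wide. Rps6, the ribosomal substrate of the S6 kinases, had a 1103 bp peak (chr4:86856714-86857816). Rps19, the gene most often mutated in human Diamond-Blackfan anaemia, had 1060 bp (chr7:24884023-24885082). Rpl22, needed for development of alpha-beta T cells in mice, had 613 bp (chr4:152325681-152326293), against 880 bp at its paralog Rpl22l1. The last 4 genes were named for their roles after their values were seen, and width in a merged list is not a measure of transcription.

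**Figure D2:**
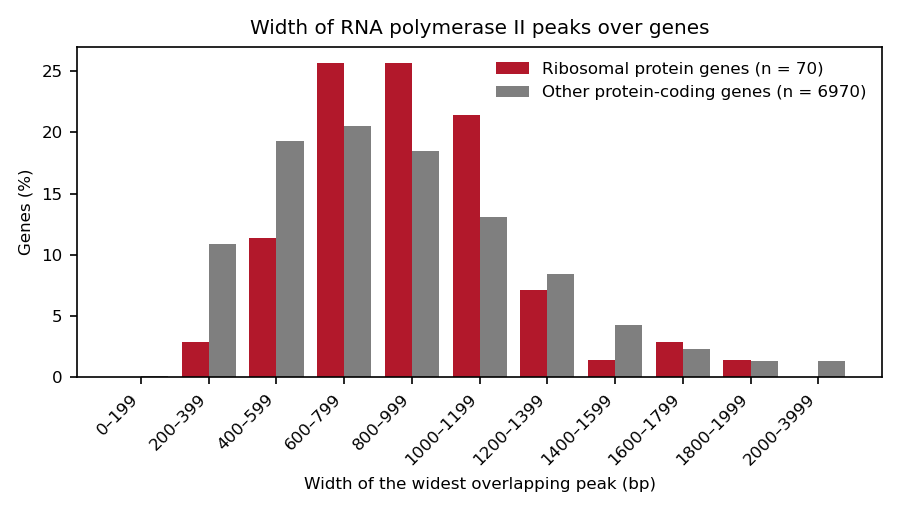
Width of the widest RNA polymerase II peak overlapping each gene (horizontal axis, bp) as the percentage of genes per width bin (vertical axis), for 70 ribosomal protein genes and for other protein-coding genes. The medians are 881 bp and 793 bp and the distributions overlap, with Rpl41, Rps2 and Rpl12 in the right tail.

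RNA polymerase II peaks covered a sizeable part of many of these genes. The median covered share was 18% (quartiles 10.4 and 25.8%, range 1.47 to 100%, 70 genes), against 9.06% for other genes of the members' span range and 2.40% for all others with a peak. With the 10 uncovered members counted as 0 the median was 15.6%. Within span classes the differences were smaller, as medians of 30.6% against 29.8% at 1000 up to 2000 bp and 25.2% against 20.9% at 2000 up to 3000 bp show. In the longer classes the medians were 17.4% against 14.6%, 12.5% against 9.92%, and 9.96% against 5.86%. A share of 25% or more was found in 22 of 70 members (31.4%), against 14.1% of other genes of the span range. For 50% or more the counts were 3 of 70 (4.29%) against 3.81%.

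Rpl41 was covered from end to end, at 100%. Rps27, a zinc-finger protein of the small subunit, was covered over 66.4% of its 982 bp and Rpl12 over 65.2%. The peaks over Rpl41, Rps27 and Rpl12 also held the annotated starts of Zc3h10, Rab13 and Lrsam1, in that order. Rps2 had 46.2% and Rps29 41.2%. Rpl7a (35.8%), Rps12 (35.6%), Rpl37 (32.7%), Rps23 (30.9%) and Rps21 (30.2%) completed the 10 highest. The lowest shares belonged to genes whose peak barely reached into the gene or whose span was long. Rps14 had 1.47% and Rpl13a 1.48%, with 58 and 47 bp inside the gene. Rps15a, which has the longest span at 11774 bp, had 3.52%. Rps25 had 5.83% and Rpl35 5.89%.

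**Figure D3:**
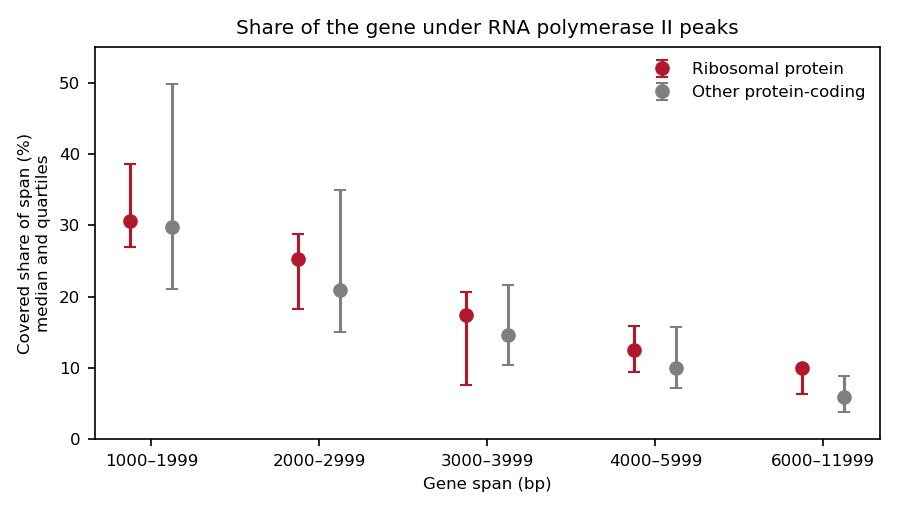
Percentage of the gene span covered by RNA polymerase II peaks (vertical axis) by class of gene span (horizontal axis, bp) for genes with an overlapping peak, as medians with quartiles, for ribosomal protein genes and other genes. The medians decline with span in both, from 30.6% against 29.8% in the shortest class to 9.96% against 5.86% in the longest.

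Most peaks sat on the annotated start and reached further into the gene than away from it. Among the 53 members with a tabulated start and an overlapping peak, the start lay inside the widest peak at 42 (79.2%, interval 65.9 to 89.2%). The share was 67.0% of all such genes. The midpoint was within 500 bp of the start at 47 (88.7%, interval 77.0 to 95.7%), against 75.5%. It was downstream of the start at 41 (77.4%, interval 63.8 to 87.7%), against 65.2%. The intervals for a start inside the peak and for a downstream midpoint hold the share of all such genes. These shares were not matched for gene span, and many of the other genes are longer than the members. The median midpoint was 144 bp downstream for members (quartiles 43.5 and 284 bp) and 115 bp for other genes. Peaks reached a median of 332 bp upstream and 580 bp downstream at members, against 298 and 514 bp at other genes. Over all 61 members with a tabulated start, the start lay in some peak at 43 (70.5%), against 23.0% of all genes. A peak was within 500 bp of it at 54 (88.5%), against 30.1%. The 7 exceptions were the 6 members without a gene-end peak and Rps15.

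The peaks farthest from a start were those at Rps18, with a midpoint at 4070 bp, and Rpl18, with a midpoint at -2812 bp, which is upstream. Both are peaks shared with a neighbouring gene, and each gene had a second peak near its own start. Rpl41 followed with 936 bp, Rpl38, which in mice affects translation of Hox mRNAs, with 710 bp, and Rpl12 with 648 bp. The widest peak lay wholly downstream of the start at 10 of 53 members (18.9%, interval 9.44 to 32.0%), against 27.7% of all such genes. It lay wholly upstream at 1 (1.89%, interval 0.0478 to 10.1%), against 5.36%. Both intervals hold the share of all such genes, which was not matched for gene span.

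**Figure D4:**
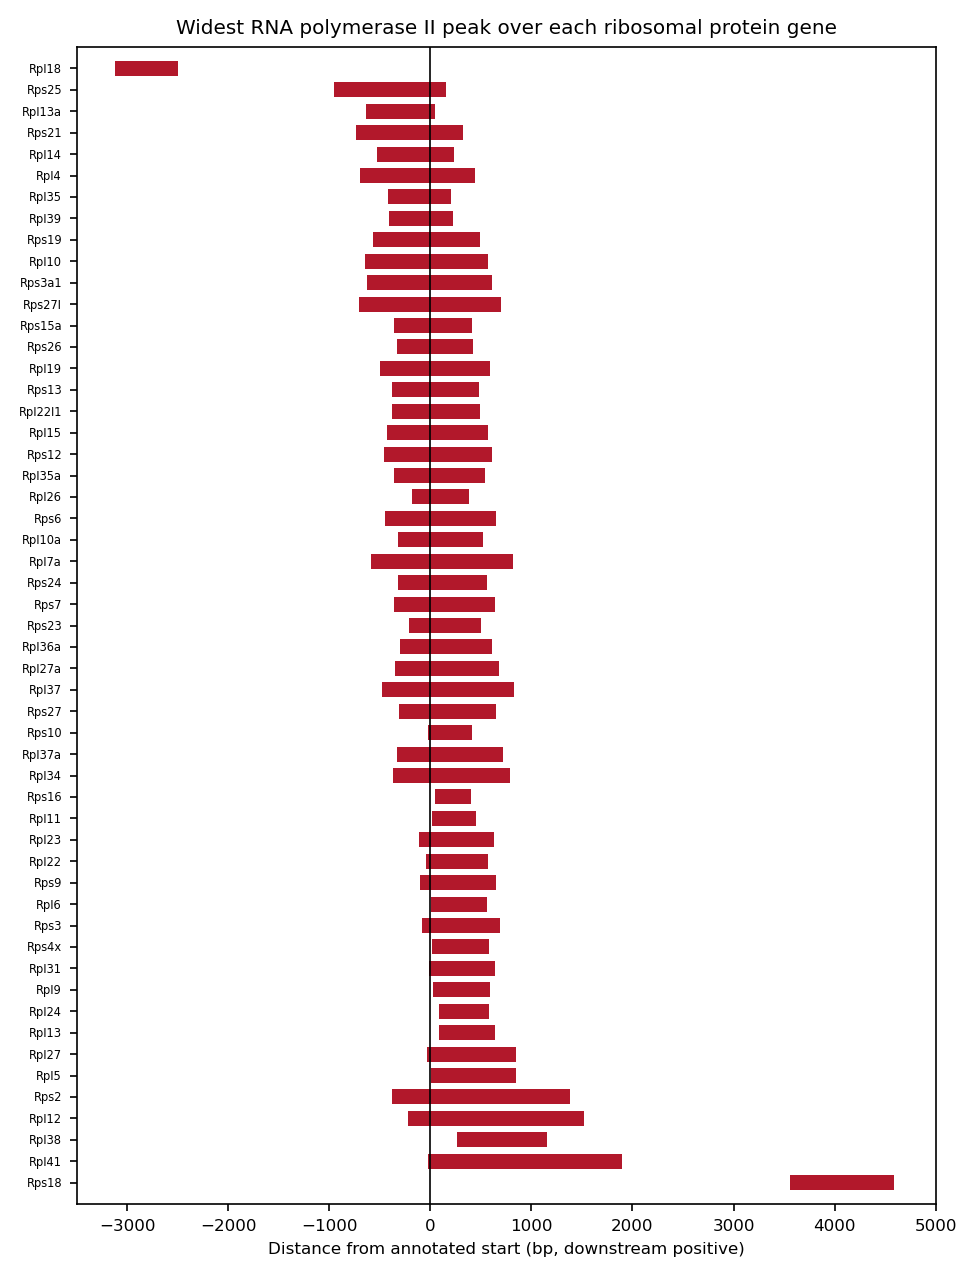
Extent of the widest overlapping RNA polymerase II peak around the annotated transcription start (horizontal axis, bp, positive in the direction of transcription) for each of 53 ribosomal protein genes (rows, ordered by the midpoint), drawn as bars. The start lies inside the bar at 42 genes, and the bars of Rps18 and Rpl18 lie apart from it.

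Within the gene span, few members had more than 1 peak, and their count cannot be told from that of other genes. Rps18, Rps20 and Rpl18 had 2, which is 3 of 80 (3.75%, interval 0.780 to 10.6%). The share was 6.12% of all protein-coding genes and 1.64% of other genes of 1000 to 12000 bp, and the interval holds both. Rps18 had a 944 bp peak at its start, also holding the start of Vps52, and a 1030 bp peak at its far side, holding the start of B3galt4. Rps20 had peaks of 937 and 485 bp, and neither touched another protein-coding gene. Rpl18 had a 388 bp peak near its annotated start and a 625 bp peak that held the start of Sphk2.

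Within 3000 bp of the gene, more members had a second peak. There, 34 of 80 (42.5%, interval 31.5 to 54.1%) had 2 or more peaks, against 9.98% of all protein-coding genes and 5.46% of other genes of 1000 to 12000 bp. Where the start was tabulated and a peak overlapped the gene, the further peaks beside the gene lay on its downstream side. Of the 53 members with a start and an overlapping peak, 22 (41.5%, interval 28.1 to 55.9%) had a further peak within 3000 bp past their far end. The share was 12.4% of 1489 other genes in the span range and 11.4% of all such genes. On the upstream side, 0 of 53 members had one, which allows a share of up to 6.72% by the exact interval, against 4.50% of other genes in the span range and 4.63% of all. This arrangement was noticed in the data and then counted, so its counts describe these lists and support nothing further.

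Some of the downstream peaks lay at neighbouring genes. Counting only peaks that touched no other protein-coding gene and were over 500 bp from its starts, 13 of 53 members (24.5%) had a downstream peak, against 4.30% of other genes in the span range and 5.22% of all. The closest downstream peak was at Rps19, 838 bp wide and 2 bp past the gene. Rps15a had a 1521 bp peak at 231 bp and Rpl19 a peak at 273 bp. Rps10 followed at 367 bp, Rpl13 at 417 bp and Rpl15 at 550 bp. These 6 are among the 13. Downstream peaks outside the 13 include those of Rpl4, which lines the exit tunnel, Rpl23 and Rpl7a. The Rpl4 peak, 189 bp past the gene, held the start of Snapc5. At Rpl23 a 1554 bp peak at 748 bp touched 1700001P01Rik. The Rpl7a peak, at 2635 bp, held the start of Surf2.

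Of the 17 members without a tabulated start and with an overlapping peak, 6 had a peak beside the end opposite to their own peak and 2 beside the same end. The 6 included Rpl3, with a 1826 bp peak 364 bp off, and Rps14, with a 1364 bp peak 848 bp off. They also included Rpl32, with a 1172 bp peak at 524 bp. For these 17 genes the strand was not in the tables, so the side cannot be named.

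**Figure D5:**
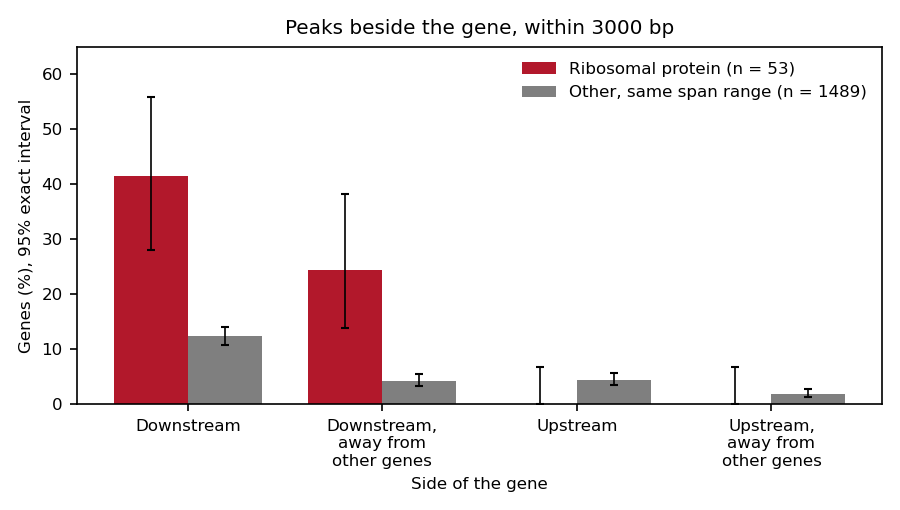
Percentage of genes with a further RNA polymerase II peak beside the gene within 3000 bp (vertical axis), past its far end or past its start-side end. Values are for 53 ribosomal protein genes and 1489 other genes of the same span range, with exact 95% intervals as lines. Peaks that overlap the gene, such as the one upstream of the annotated start of Rpl18, are not counted. The second group on each side counts peaks away from other protein-coding genes. Downstream the shares are 41.5% against 12.4%, and upstream 0% against 4.50%.

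Some peaks cannot be assigned to a ribosomal protein gene alone. Of the 73 peaks overlapping members, 13 touched another protein-coding gene and 8 held the annotated start of one. These include the peaks of Rpl12 (shared with Lrsam1), Rpl41 (Zc3h10), Rpl7a (Med22), Rps25 (Trappc4) and Rps27 (Rab13). Of the 35 peaks beside members, 14 touched another protein-coding gene and 21 touched none. No peak lay within 3000 bp of more than 1 member, so each member's peaks were counted for that member only.

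Many of the genes hold snoRNA genes. At least 1 lay within 28 of 80 members (35%), against 1.70% of all protein-coding genes, and the members held 55 of 1340 snoRNA genes. Rpl4 held 5, and Rpl7a and Rpl13a held 4 each. The widest peak had a median of 960 bp over the 26 holders with a peak and 861 bp over the 44 members without a snoRNA gene, and their quartiles (756 and 1197 bp against 673 and 1035 bp) overlap. Of the 55 snoRNA genes, 7 (12.7%, interval 5.27 to 24.5%) lay under a peak. The share among all snoRNA genes is not given here. Peaks covered a median of 18% of the gene span in the 26 holders with a peak, which lies within that interval. The 7 under a peak include Snord43 in Rpl3, and Snora78 and Snora64 in Rps2.

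The promoter sequences were searched for 8 short motifs. Of these, 4 were sought over 300 bp, 250 before the start and 50 after it, and 4 pyrimidine motifs only near the start. CCGGAAG, a core bound by ETS factors such as GABPA, was present on either strand in 23 of 61 members (37.7%, interval 25.6 to 51.0%), against 11.9% of 17492 genes and 20.8% of the 5784 with an overlapping peak. GGGCGG, the SP1 core, was present in 35 (57.4%), between 46.6% of all genes and 67.3% of those with a peak. AAGATGGCG, a YY1 core, was present in 4 (6.56%), against 2.00% and 3.92%. TATAAA was present in 6 (9.84%), against 13.2% and 6.47%. Rpl41 and the others printed above show how these letters sit around the start, and a match is not a binding site.

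Pyrimidine letters at the start were frequent among members. Any of CTTTT or CTTCC or CCTTT or TCTTTC, which can overlap, was found on the sense strand within 10 bp of the start in 18 of 61 (29.5%, interval 18.5 to 42.6%), against 8.52% of all genes and 10.1% of those with a peak. A C followed by 4 or more pyrimidines, beginning within 5 bp of the start, was found in 27 (44.3%, interval 31.5 to 57.6%), against 18.7% and 20.0%. The annotated start base was C in 19 (31.1%), against 13.7% of all genes. The longest pyrimidine run reaching the start had a median of 5 bases (range 1 to 21) in members and 3 in all genes. Members with an overlapping peak had a C followed by such a run in 25 of 53 (47.2%), and members without in 2 of 8 (25%, interval 3.19 to 65.1%), a group too small to set apart. GC content over the 300 bp had a median of 57% in members and 56.3% in all genes, and 57.7% in members with an overlapping peak against 61.7% in all genes with one.

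Peaks of the other 3 lists were few at these genes, but no count could be told from the share of all genes. An H3K9me3 peak, the mark of constitutive heterochromatin, lay within 3000 bp of 1 of 80 members (1.25%, interval 0.0316 to 6.77%). The share was 6.41% of all protein-coding genes and 3.75% of other genes of 1000 to 12000 bp, and the interval holds both. The 1 member was Rpl10l (chr12:66283379-66284401), whose 625 bp H3K9me3 peak (chr12:66283945-66284569) covered 457 bp of its 1023 bp. Rpl39l had the next closest H3K9me3 peak, 767 bp wide and 7650 bp away. Both are paralogs without an RNA polymerase II peak. R-loop peaks were within 3000 bp of 0 of 80 members, which allows a share of up to 4.51% by the exact interval, against 1.80% of all genes and 0.538% of other genes of 1000 to 12000 bp. DDX55 peaks were also at 0 of 80, with the same limit, against 0.420% and 0.372%. At these list sizes a share equal to that of all genes could not be told from 0.

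The median distance to the nearest H3K9me3 peak was 528858 bp for members and 317716 bp for all protein-coding genes. For R-loop peaks the medians were 1273564 and 1147850 bp, and the closest member was Rpl37 at 18177 bp. For DDX55 peaks they were 10592376 and 8841718 bp.

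Annotated ribosomal pseudogenes, the processed copies named with the suffix ps, had no RNA polymerase II peak. The count was 0 of 318, which allows a share of up to 1.2% by the exact interval, against 0.949% of all 10429 pseudogenes, so a share equal to that of all pseudogenes could not be told from 0. An H3K9me3 peak overlapped 5 of the 318 (1.57%, interval 0.512 to 3.63%), against 5.31% of all pseudogenes.

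The cytosolic ribosomal protein genes outside the symbol rule all carried a peak at a gene end, 7 of 7 (interval 59.0 to 100%), against 33.5% of all protein-coding genes. A peak also overlapped each of them. Widths of the overlapping peaks included 1437 bp at Rpl36al, 882 bp at Rplp1, 822 bp at Fau, which encodes a ubiquitin-like fusion with a small-subunit protein, 710 bp at Rplp0, 647 bp at Rplp2 and 534 bp at Rpsa. Mrpl49, a mitochondrial ribosomal protein gene beside Fau, also had 1 overlapping peak of 822 bp, so this width need not belong to Fau alone. Rplp0, Rplp1 and Rplp2 form the stalk that recruits translation factors. At a gene end, the listed genes of translation factors and other TOP mRNAs had a peak in 16 of 16 (interval 79.4 to 100%), against 33.5% of all protein-coding genes. The peaks overlapping these genes had a median width of 999 bp, and the widest were at Eef1a1 (1732 bp), Hnrnpa1 (1646 bp), Npm1 (1595 bp) and Vim (1483 bp). Among 33 ribosome biogenesis genes, 29 (87.9%, interval 71.8 to 96.6%) had a gene-end peak, against the same 33.5%. Gar1, Nhp2 and Polr1b had neither a gene-end nor an overlapping peak. Ubtf, which had none at a gene end, had 2 overlapping peaks, and Polr1c had a gene-end but no overlapping peak. The widest overlapping peaks were at Polr1d (1603 bp), Npm1 (1595 bp), Ncl (1432 bp) and Rrp9 (1219 bp). Ddx55 itself, the gene deleted in KO mice, had a 686 bp peak in the merged list, which does not say from which genotype.

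Ribosomal protein genes of the cytosol and of the mitochondrion differed in how often a peak was listed. The share at a gene end was 74 of 80 (92.5%) for the cytosolic set and 51 of 78 (65.4%, interval 53.8 to 75.8%) for the mitochondrial set, against 33.5% of all genes. Overlap with the gene was 87.5% against 57.7%, and the median covered share was 18% against 5.94%. The covered shares were not matched for gene span, with which this share declined in the span classes above. Cytosolic genes with an overlapping peak spanned 982 to 11774 bp. Mitochondrial genes with one spanned from 1429 bp (Mrpl43) to 121712 bp (Mrps28). The part of span in the difference in covered share was not tested. Widths were closer, with medians of 881 and 776 bp, and the widest mitochondrial peaks were at Mrps18b (2584 bp), Mrpl41 (1547 bp), Mrpl51 (1384 bp) and Mrpl18 (1327 bp). Peaks covered 5.31% of the 6061 bp of Mrps18b and 9.78% of the 2629 bp of Mrpl41, so most of their widest peak lay outside the gene. The covered shares were 27.5% of 2193 bp at Mrpl51 and 20.6% of 6443 bp at Mrpl18.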

How the data were processed

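CUT&Tag was carried out on naive CD4+ T cells of DDX55 KO and WT mice, in 23 samples grouped by target, genotype and treatment as labelled. For each target the authors deposited 1 merged list of peaks, in which the values are another unit, coordinates in bp, with no score. The lists for RNA polymerase II, H3K9me3 and DDX55 are each named by 2 KO and 2 WT samples, and the R-loop list by 8 samples, of which 4 had RNase H. The submitters' processing notes name mm10 as the build. They list MACS3 3.0.0b1, ChIPseeker 1.30.3, Bowtie2 2.5.0, fastp 0.12.4 and SAMtools 1.15.1, without their roles. Thresholds, calling on single or pooled samples, the way of merging, use of spike-in DNA and filters against controls are not given in the sources used here. Depth is unknown, since no list holds counts.

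Genes, starts and promoter sequences came from RefSeq tables of GRCm38.p6, whose coordinates are those of mm10. An overlap of 1 bp or more counted. Overlaps were found in Python 3.11.15 with pandas 2.3.3 and numpy 2.4.6, tested on simulated peaks, and checked with bedtools 2.31.1, which found the same 7040 genes. A gene end meant 3000 bp on each side of either end. Intervals are Clopper-Pearson 95% from scipy 1.17.1, and the limit given for a count of 0 is the upper bound of that interval. No test was run, because the lists hold no value per sample. Peaks downstream were counted past the end opposite to the annotated start.

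The members and lists were chosen with earlier results of these data known. The genes named were the members without a gene-end peak, those with 2 or more peaks or a peak of another list, the 10 widest and 5 narrowest peaks, the 10 highest and 5 lowest covered shares, the 5 farthest from the start, all other cytosolic ribosomal protein genes and listed paralogs, and in the other lists the genes without a peak and the 4 widest. Some genes that fall under this rule are not reported here. Others were named for their roles or after their values were seen. Of the listed genes, 2 of 14 T cell markers and 2 of 8 paralogs were not matched in the protein-coding table and were not analysed here.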

Additional observations from a re-analysis of the deposited data

How the results depend on the processing

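Of 27 alternatives over 12 results, 21 stayed within 1.5 times the count, or within the spread for a median, and 6 moved. These labels rate only the size of a change, and do not set an alternative against other genes. The count of members with an RNA polymerase II peak at a gene end was 74, and ran from 63 with the wider 50% of peaks to 81 of 87 with the genes outside the symbol rule. The count with 2 or more peaks was 3 within the gene and 34 within 3000 bp. The members with a peak of another list were 1 within 3000 bp and 2 within 10000 bp. Within 50 bp of the start, CCGGAAG was in 13 members, not 23, and GGGCGG in 21, not 35. The count with a downstream peak was 22, against 10 within 1000 bp and 13 away from other protein-coding genes, both chosen after seeing the data. The cause was not tested beyond the narrower or wider window that each alternative sets. No paired analysis was possible because the lists hold no values per sample. For the same reason no replicate could be left out. The unknown depth limits what an absent peak shows.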

Other observations

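Genes that act on TOP mRNAs or their translation were also looked up. Of 13 listed, 10 were overlapped by an RNA polymerase II peak (76.9%, interval 46.2 to 95%), against 32.2% of all protein-coding genes. At a gene end 8 had one (61.5%, interval 31.6 to 86.1%), against 33.5%. Widths were 1378 bp at Rheb, which activates mTORC1, 1254 bp at Eif4ebp2, 1160 bp at Larp1, which binds TOP mRNAs, 917 bp at Rps6kb1, an S6 kinase, 727 bp at Mtor and 352 bp at Myc. Eif4ebp1, Rps6kb2 and Tsc2 had no overlapping peak.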
